A study of Mus musculus with 24 samples.

Results

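Loss of the fatty acid importer CPT1a was set against loss of the acetyltransferase KAT2a in 4T1 spheroids. 4T1 is a mouse line from a mammary carcinoma. The comparison comprised the 3 H3K9ac peak lists of CPT1a knockout spheroids and the 3 of KAT2a knockout spheroids, which were chosen by their labels and make up 6 of the 24 samples of the series. CPT1a knockout spheroids that received acetate were not part of the comparison. Both groups grew in medium with 75 µM palmitate and were collected on day 5. Peaks of the 12 H3K9ac lists of the series were merged into 38586 regions, and 23850 of these were called in at least 1 of the 6 libraries. The 3 scramble lists and the 3 lists of CPT1a knockout with acetate are given beside the results as controls. Scramble spheroids also had 75 µM palmitate. The acetate group had 5 mM acetate, and its labels give no palmitate dose. Both were collected on day 5. According to the study's methods, all lines carried a doxycycline-inducible Cas9, the knockouts were made with guides against exons of each gene, and the control guide was non-targeting. The labels do not name the guide of a library and do not say whether replicates came from separate cultures, so the p-values measure the spread between these libraries, which may be technical.

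CPT1a couples long-chain fatty acids to carnitine at the outer mitochondrial membrane, the step that limits their entry into mitochondria, where beta-oxidation turns them into acetyl-CoA. KAT2a, also known as GCN5, is a catalytic subunit of the SAGA and ATAC complexes, transfers the acetyl group of acetyl-CoA to lysines and is best known for lysine 9 of histone H3. H3K9ac marks active promoters and enhancers. The comparison therefore asked where H3K9ac differed between cells that lack a source of acetyl-CoA and cells that lack an enzyme that uses it.

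The sequences below are the strongest regions called in one group alone and promoters with large rank differences. They are single examples, and the base composition of the whole sets is given with the last result. They are written 5′ to 3′ with CpG dinucleotides in capitals. The first lines hold up to 200 bases around the summit of regions called in 3 of 3 libraries of one knockout and 0 of 3 of the other, read from the plus strand of GRCm38 without annotated UTR bases. In CPT1a knockout alone these were chr13:107034336-107034535, an intergenic site whose nearest gene is Kif2a, and chr11:69118970-69119169, beside the start of Hes7. In KAT2a knockout alone they were chr7:68748900-68749066 and chr4:73790710-73790868, in the first coding exons of Arrdc4 and Rasef. The last lines are the UTR-free parts of RefSeq promoters (GRCm38.p6). They belong to the genes with the largest rank difference by pileup in each direction, and to a neighbour of the second. Only genes past an adjusted p of 0.05 (limma) were considered. They are Rab35 (chr5:115631737-115631907, plus strand), Cldn4 (chr5:134946935-134947184, minus strand) and Cldn3 (chr5:134985964-134986213, plus strand).
Kif2a region: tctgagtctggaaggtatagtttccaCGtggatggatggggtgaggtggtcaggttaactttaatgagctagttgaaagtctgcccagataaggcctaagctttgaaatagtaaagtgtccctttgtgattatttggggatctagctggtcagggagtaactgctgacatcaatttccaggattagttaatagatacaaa
Hes7 region: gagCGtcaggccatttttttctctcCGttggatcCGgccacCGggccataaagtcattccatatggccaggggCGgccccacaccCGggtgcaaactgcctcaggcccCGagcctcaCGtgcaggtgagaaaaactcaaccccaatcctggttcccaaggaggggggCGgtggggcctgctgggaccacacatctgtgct
Arrdc4 region: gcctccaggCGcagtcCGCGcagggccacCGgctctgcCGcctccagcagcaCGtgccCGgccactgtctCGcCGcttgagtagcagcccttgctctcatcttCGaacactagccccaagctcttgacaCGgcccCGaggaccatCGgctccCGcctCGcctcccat
Rasef region: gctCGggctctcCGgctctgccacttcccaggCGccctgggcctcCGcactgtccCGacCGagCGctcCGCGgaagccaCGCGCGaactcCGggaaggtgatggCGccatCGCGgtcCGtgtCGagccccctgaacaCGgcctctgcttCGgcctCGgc
Rab35 promoter: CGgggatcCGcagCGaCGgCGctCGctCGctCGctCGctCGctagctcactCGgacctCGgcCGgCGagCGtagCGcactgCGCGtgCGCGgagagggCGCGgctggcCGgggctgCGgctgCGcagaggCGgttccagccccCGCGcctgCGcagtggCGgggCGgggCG
Cldn4 promoter: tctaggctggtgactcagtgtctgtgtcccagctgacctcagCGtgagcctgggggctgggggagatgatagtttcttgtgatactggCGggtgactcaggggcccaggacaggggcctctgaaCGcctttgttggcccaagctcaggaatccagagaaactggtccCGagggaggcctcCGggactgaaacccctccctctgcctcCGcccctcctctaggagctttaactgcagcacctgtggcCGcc
Cldn3 promoter: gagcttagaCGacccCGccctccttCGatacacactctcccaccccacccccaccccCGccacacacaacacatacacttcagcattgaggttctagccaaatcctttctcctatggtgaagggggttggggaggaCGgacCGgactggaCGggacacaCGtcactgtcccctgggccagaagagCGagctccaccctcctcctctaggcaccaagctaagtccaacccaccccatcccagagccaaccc
The Rab35 stretch held 32 CpG dinucleotides in 171 bases, against 7 for Cldn4 and 9 for Cldn3 in 250 bases each. The Arrdc4 and Rasef stretches are richer in CpG than is usual for their set, in which the median window of 300 bases held 6, against 7 for the 6 regions of CPT1a knockout alone and 8 for all regions called in either group. The letters of the AP-1 motif, described later, occurred 2 times in the Cldn4 stretch and 0 times in those of Cldn3 and Rab35.

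The depth and extent of the lists were compared first. Calling depth is the average number of fragments over a base at which MACS2 made a list, and it was 1.70, 1.56 and 0.553 in CPT1a knockout replicates 1, 2 and 3 and 1.67, 1.81 and 1.02 in those of KAT2a knockout. CPT1a knockout replicate 3 had the lowest calling depth of the 12 H3K9ac libraries. Its recovered values correspond to a ChIP coverage of 1.463 multiplied by 0.3784 before calling. That coverage was above those of KAT2a knockout replicate 3 (1.12) and of CPT1a knockout with acetate replicate 2 (0.6598). The lists held 20935, 23522 and 16201 peaks in CPT1a knockout and 23844, 24091 and 22640 in KAT2a knockout. The means were 20219 ± 3713 and 23525 ± 776 (SD, n = 3), and the groups overlapped (two-sided exact permutation test, p = 0.200). With 3 libraries against 3, this test cannot give a p below 0.1. Without CPT1a knockout replicate 3, the difference in peak number shrank from -3306 to -1296. Peaks covered 29.2, 30.9 and 19.5 Mb in CPT1a knockout and 32.6, 35.4 and 27.3 Mb in KAT2a knockout (exact permutation p = 0.400). Between 54.7% and 76.2% of the peaks lay within 1 kb of a protein-coding transcription start site (TSS) in CPT1a knockout, and between 52.5% and 61.0% in KAT2a knockout (exact permutation p = 0.600). The highest share was again that of CPT1a knockout replicate 3. The median peak width was 1147, 984 and 1032 bp and 985, 1074 and 922 bp (exact permutation p = 0.500), and the sign of that difference turned at equal depth. Scramble lists held 32250 ± 2734 peaks (SD, n = 3) at a calling depth of 2.10 ± 0.364, above each of the 6 knockout libraries in number.

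**Figure D1:**
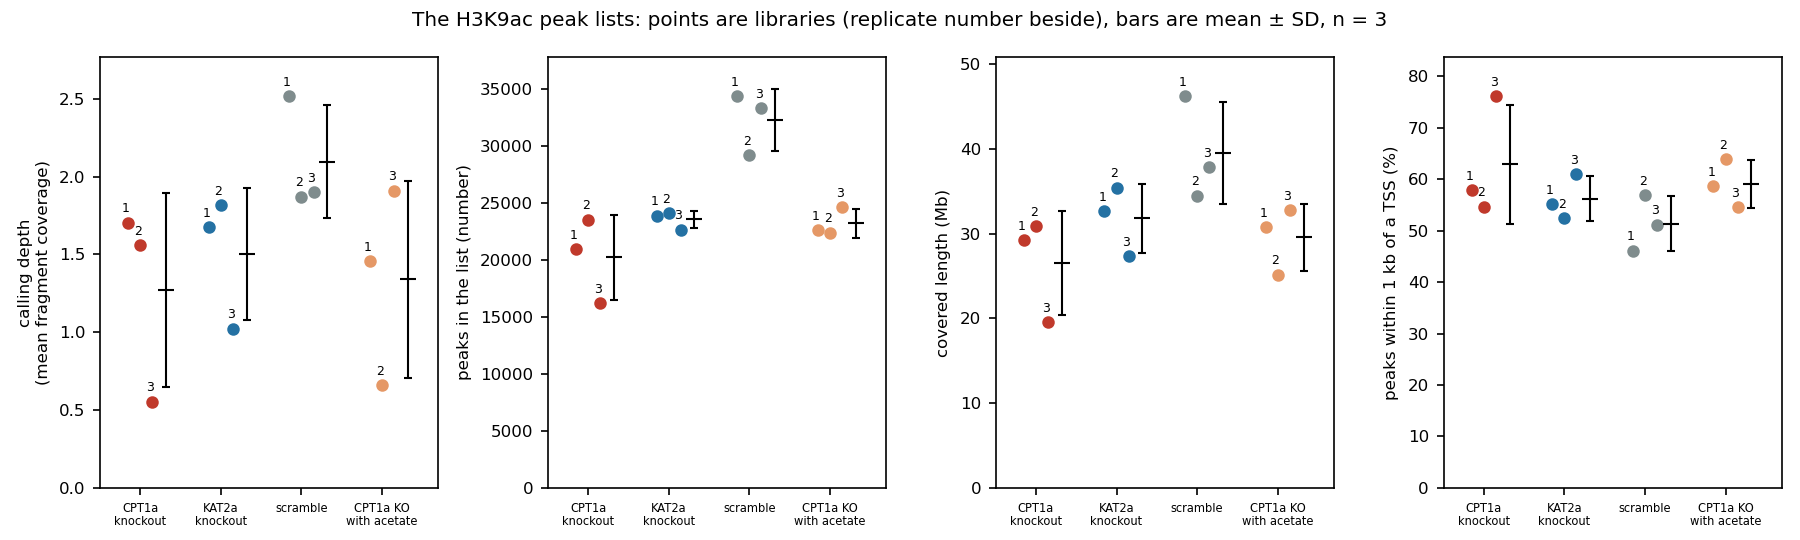
Calling depth, number of peaks, covered length and share of peaks within 1 kb of a TSS for each H3K9ac library (points, with the replicate number), with the mean and SD of each group of 3. CPT1a knockout replicate 3 lies lowest in calling depth, peak number and covered length and highest in promoter share, and the scramble libraries hold the most peaks.

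Markers of mammary epithelial cells were present in both knockouts, as the label of the line implies. Of 13 markers, 10 carried a promoter peak in all 6 libraries, among them Epcam, Krt8, Krt18 and Cdh1. None of 6 leukocyte and 4 endothelial markers had a promoter peak in any of the 6, 1 of 4 markers of alveolar type II cells had one in at least 1 library and 0 in all 6, and 2 of 6 fibroblast markers (Col1a1 and Pdgfra) had one in all of them.

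The loci of the targeted genes were examined in every library. H3K9ac at a promoter does not read the edit made by a guide, so these values do not check the knockout. Each promoter was ranked within its library by fold enrichment, as a percentile from 0 (weakest) to 100 over 10919 genes whose promoter held a peak in each of the 6 libraries. The Kat2a promoter (chromosome 11) ranked at 36.6, 44.4 and 61.5 in CPT1a knockout and 43.2, 14.3 and 31.4 in KAT2a knockout. Its ranks overlapped between the groups (difference 17.9, SE 11.1, limma adjusted p = 0.688), and the 3 scramble ranks lay below all 6, between 6.72 and 8.84. The Cpt1a promoter (chromosome 19) ranked at 30.4, 48.4 and 59.6 in CPT1a knockout and 50.5, 57.4 and 57.3 in KAT2a knockout, which also overlapped (difference -8.94, SE 11.8, adjusted p = 0.849). Rela encodes p65, the NF-kB subunit whose acetylation the study examined. Its promoter ranked at 70.3, 64.0 and 88.3 in CPT1a knockout and 84.2, 50.6 and 74.7 in KAT2a knockout (difference 4.37, SE 11.8, adjusted p = 0.931), and the sign of this difference turned without CPT1a knockout replicate 3 (-2.61) and without KAT2a knockout replicate 2 (-5.25).

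Regions called in one group alone were more numerous for KAT2a knockout. Of the 23850 regions called in either group, 265 (1.11%) were called in 3 of 3 KAT2a knockout and 0 of 3 CPT1a knockout libraries, and 6 (0.0252%) the other way round. The counts depended on which libraries were used. Without CPT1a knockout replicate 3, the library with the shortest list, 245 regions belonged to CPT1a knockout alone and 266 to KAT2a knockout alone. Leaving out 1 library asks for a call in all remaining libraries, which is a looser rule. Without KAT2a knockout replicate 2 the count of CPT1a knockout was 13, and that of KAT2a knockout was 419 and 617 without CPT1a knockout replicates 1 and 2 and 404 and 700 without KAT2a knockout replicates 1 and 3. At an equal calling depth of 0.55 the counts were 21 and 195, and with lists cut to equal length 33 and 122. No test was made, since 3 libraries against 3 cannot pass 0.05 for a single region.

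The regions of KAT2a knockout alone were small and mostly away from promoters. Their median width was 693 bp, against 1568 bp for all regions called in either group. Of them, 80 overlapped a promoter (30.2%, against 50.8% of all), 90 lay in gene bodies and 95 between genes. In the other groups, 50 of the 265 were called in all 3 scramble libraries (18.9%, against 62.1% of all regions called in either group) and 105 in none. In CPT1a knockout with acetate, 10 were called in all 3 libraries (3.77%, against 59.3% of all) and 177 in none. This profile was not particular to KAT2a knockout. The 245 regions of CPT1a knockout alone without its replicate 3 had a median width of 477 bp, and 15.5% overlapped a promoter. All 3 scramble libraries called 5.71% of them, and all 3 libraries with acetate 11.8%.

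Of the 4 strongest of these regions, 3 were promoters and 1 lay in a gene body. The Arrdc4 region (chr7:68747993-68749447), at the start of an arrestin-domain gene, had a fold enrichment over local background of 20.0, 17.9 and 18.6 in KAT2a knockout. Scramble replicates 1 and 2 called it at 4.32 and 7.66, and neither scramble replicate 3 nor any CPT1a knockout library, with or without acetate, called it. The Rasef region (chr4:73789755-73791060), the promoter of a Rab GTPase with EF hands, had 15.3, 13.8 and 14.5 in KAT2a knockout and 9.84, 9.40 and 6.76 in scramble. Again it was called in no CPT1a knockout library of either medium. A region inside Nhsl1 (chr10:18506540-18507542) had 12.2, 9.23 and 13.1, and the promoter of Il24, a cytokine of the IL-10 family (chr1:130886089-130887711), had 11.0, 11.0 and 7.46 in KAT2a knockout. As for Rasef, each scramble library and no library with acetate called them.

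The 6 regions of CPT1a knockout alone had a lowest fold enrichment over the 3 libraries between 4.53 and 6.73, where the median of the 265 regions of KAT2a knockout alone was 4.56. The strongest of the 6, 11803 bp from the nearest TSS of Kif2a (chr13:107033929-107035283), had a fold enrichment of 13.4, 9.78 and 6.73 in CPT1a knockout. The region beside Hes7, a Notch-driven repressor of the segmentation clock (chr11:69118961-69120160), had 6.91, 6.31 and 5.23. Both were also called in all 3 scramble libraries and all 3 libraries with acetate, so that KAT2a knockout was the group without a call. Regions 69469 bp from Ccnl1 (chr3:65876688-65878529) and 58938 bp from Gdi2 (chr13:3478192-3479125) had lowest values of 5.18 and 4.88 over the 3 libraries.

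Promoters shared by all 6 libraries were then compared by their rank. By fold enrichment, no promoter passed an adjusted p of 0.05 in limma in either direction (0% of 10919 each, with 862 at an unadjusted p below 0.05 and a smallest adjusted p of 0.0817). No region of 12527 passed either (0% each, 1050 at an unadjusted p below 0.05). The groups did not overlap for 901 promoters that ranked higher in CPT1a knockout (8.25%) and 777 that ranked lower (7.12%), and for 1058 regions (8.45%) and 942 (7.52%). The median difference between the groups was 7.60 percentile points regardless of sign, which is less than the median SD within a group of 11.3.

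Of the 12 promoters with the largest non-overlapping difference in each direction by fold enrichment, those named here did not pass the threshold (adjusted p between 0.479 and 0.619). Those that ranked higher in CPT1a knockout were Kif1b, Trim33, Cip2a with Dzip3 at a shared peak, Atic, Rnf41, Oxsr1, H3f3a, Ppip5k1, Itpripl2, Lrp10 and Adrm1, with differences from 41.8 to 53.0. Kif1b encodes a kinesin that carries mitochondria and vesicles, and its promoter ranked at 85.6, 60.3 and 79.4 in CPT1a knockout and 23.7, 22.5 and 20.2 in KAT2a knockout. Those that ranked lower were Ifi211, Cdcp1, Zfp422, Gmfg, Fam120b, Unk, Ppib, Nln with Sgtb, B3gntl1, Slc19a2, Tspan2 and Eif3i with Tmem234. Ifi211 belongs to the interferon-inducible p200 family, and its promoter ranked at 15.2, 16.2 and 22.9 in CPT1a knockout and 83.7, 55.8 and 96.7 in KAT2a knockout. The spread was wide in single genes: H3f3a, a gene for histone H3.3, ranked at 91.7, 91.7 and 88.3 in CPT1a knockout and 11.0, 80.1 and 48.9 in KAT2a knockout.

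Fold enrichment divides the pileup at the summit by a local background, and the pileup alone repeated better between libraries. The pileup, the number of fragments over the summit, was recovered from the fold enrichment and p of each peak and ranked in the same way. This measure was chosen after the data were seen. Pearson correlations of promoter ranks across genes were between 0.946 and 0.961 within a group and between 0.916 and 0.929 across groups, against 0.678 to 0.820 and 0.658 to 0.814 for fold enrichment. By pileup, 120 promoters ranked higher (1.1%) and 136 lower (1.25%) in CPT1a knockout at an adjusted p of 0.05, and 2363 of 10919 (21.6%) had an unadjusted p below 0.05. The groups did not overlap for 1447 promoters (13.3%) in the first and 1443 (13.2%) in the second direction. By fold enrichment, 115 of the 120 and 126 of the 136 had the same sign. Both measures come from the same peaks and are not independent. Of the promoters named above by fold enrichment, Adrm1 ranked lower in CPT1a knockout by pileup without overlap (-7.56), and Cip2a with Dzip3 (-6.81), Rnf41 (-1.14) and Nln with Sgtb (1.03) also changed sign, with groups that overlapped. The number of calls depended on every library: leaving out CPT1a knockout replicate 1, 2 or 3 left 0, 19 and 0 higher and 0, 25 and 0 lower calls, and leaving out KAT2a knockout replicate 1, 2 or 3 left 13, 8 and 23 higher and 25, 30 and 63 lower. Pileup is not divided by a local background, so the number of copies of a locus enters it, and the part of copy number was not tested. Differences in rank by pileup are given below as CPT1a knockout minus KAT2a knockout ± SE (n = 3 in each group), and the 22 promoters named for their size had adjusted p between 0.0120 and 0.0394 in limma.

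The promoters of Cldn4 and Cldn3 ranked lower in CPT1a knockout than in KAT2a knockout by pileup. Cldn4, a claudin of the tight junction, had the largest difference of the 136 and ranked at 9.14, 17.7 and 13.9 in CPT1a knockout and 63.4, 57.4 and 47.9 in KAT2a knockout (difference -42.7 ± 5.17, adjusted p = 0.0120). All 3 CPT1a knockout libraries lay below all 3 KAT2a knockout libraries, and scramble lay with CPT1a knockout, at 27.6, 15.4 and 17.3. The promoter of Cldn3, its neighbour on chromosome 5, ranked at 22.0, 21.0 and 20.5 in CPT1a knockout and 53.3, 64.3 and 52.7 in KAT2a knockout (difference -35.6 ± 5.09), with scramble at 25.2, 27.3 and 20.3. KAT2a knockout was therefore the group that stood apart at both promoters.

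Other promoters that ranked lower in CPT1a knockout were high in scramble. Gja1, the gene of the gap junction protein connexin 43, ranked at 39.1, 39.1 and 38.1 in CPT1a knockout and 76.1, 85.8 and 63.0 in KAT2a knockout (difference -36.2 ± 6.93) and at 97.9, 97.7 and 98.8 in scramble. Myof encodes myoferlin, a membrane repair protein, and ranked at 45.6, 37.8 and 47.7 in CPT1a knockout and 73.0, 83.4 and 78.8 in KAT2a knockout (difference -34.7 ± 5.98), against 95.1, 90.1 and 95.6 in scramble. Plet1, a surface protein of epithelial progenitors, ranked at 17.8, 19.2 and 16.0 in CPT1a knockout and 44.7, 66.5 and 45.0 in KAT2a knockout (difference -34.4 ± 6.11), against 88.9, 76.9 and 81.7 in scramble. At these promoters CPT1a knockout was farthest from scramble and KAT2a knockout lay between. Prag1, a pseudokinase scaffold (difference -35.9 ± 6.45), Tmem223 (-34.0 ± 4.53) and Wdr61, a subunit of the PAF1 and SKI complexes (-32.4 ± 5.46), also had scramble ranks above those of CPT1a knockout. Abcb8, a mitochondrial ABC transporter (difference -41.6 ± 5.05), and Atg9b, an autophagy protein (-40.7 ± 4.98), start next to each other and shared their strongest peak in 5 of the 6 knockout libraries, all but CPT1a knockout replicate 3, so they are 1 observation. Nipal2 (difference -33.2 ± 6.27) also ranked lower, with scramble at 20.5, 19.4 and 21.4. Over all 136 lower promoters, the scramble mean was nearer to KAT2a knockout in 88 and nearer to CPT1a knockout in 48. The same share over all 10919 promoters is not given here, so these counts do not set the called promoters apart.

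The promoters of Rab35 and Tfeb were among those that ranked higher in CPT1a knockout by pileup. Rab35 encodes a GTPase of endosomal recycling and ranked at 82.1, 68.2 and 72.4 in CPT1a knockout and 43.5, 36.9 and 38.9 in KAT2a knockout (difference 34.5 ± 6.23, adjusted p = 0.0323). The groups did not overlap, and scramble, at 39.1, 44.3 and 45.0, lay with KAT2a knockout. Tfeb, the regulator of lysosome formation, ranked at 65.6, 62.1 and 64.2 in CPT1a knockout and 29.9, 29.1 and 34.7 in KAT2a knockout (difference 32.7 ± 5.45), with lower scramble ranks of 13.8, 23.8 and 6.73. Pwwp2a, a reader of nucleosomes with the variant H2A.Z, ranked at 74.1, 70.6 and 83.1 in CPT1a knockout and 48.3, 42.2 and 43.5 in KAT2a knockout (difference 31.3 ± 6.001), and its adjusted p was 0.0502 with the GC trend removed. Mrps24, a protein of the mitochondrial ribosome (33.1 ± 5.96), Ppp1r35, a centriolar protein (31.5 ± 5.77), and Dazap2 (30.9 ± 5.43) also ranked higher.

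Other promoters with large differences lay on chromosomes 18 and X. Kdm3b, a demethylase of histone H3 lysine 9, ranked at 91.4, 87.0 and 88.1 in CPT1a knockout and 52.0, 53.5 and 58.7 in KAT2a knockout (difference 34.1 ± 4.38), Sft2d3 at 55.0, 54.4 and 60.5 in CPT1a knockout and 23.8, 20.5 and 33.3 in KAT2a knockout and Snx2, a sorting nexin of the retromer, at 71.8, 73.0 and 66.9 in CPT1a knockout and 35.4, 46.5 and 40.4 in KAT2a knockout. Removing chromosome medians, an alternative added after seeing the data, lowered the differences to 19.9 for Kdm3b, 16.6 for Sft2d3 and 15.6 for Snx2. Kdm3b then still passed (limma adjusted p = 0.0214), while Sft2d3 (0.132) and Snx2 (0.100) did not. On chromosome X, Hprt, the enzyme of purine salvage, had a difference of 31.6 ± 5.47 and Plp2 of 30.2 ± 5.69. The mean of the scramble libraries was nearer to KAT2a knockout for each of the 11 higher promoters named here. Over all 120 higher promoters, scramble was nearer to KAT2a knockout in 92 and nearer to CPT1a knockout in 28. Here too the share over all 10919 promoters is not given, so the counts describe the called promoters alone.

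**Figure D2:**
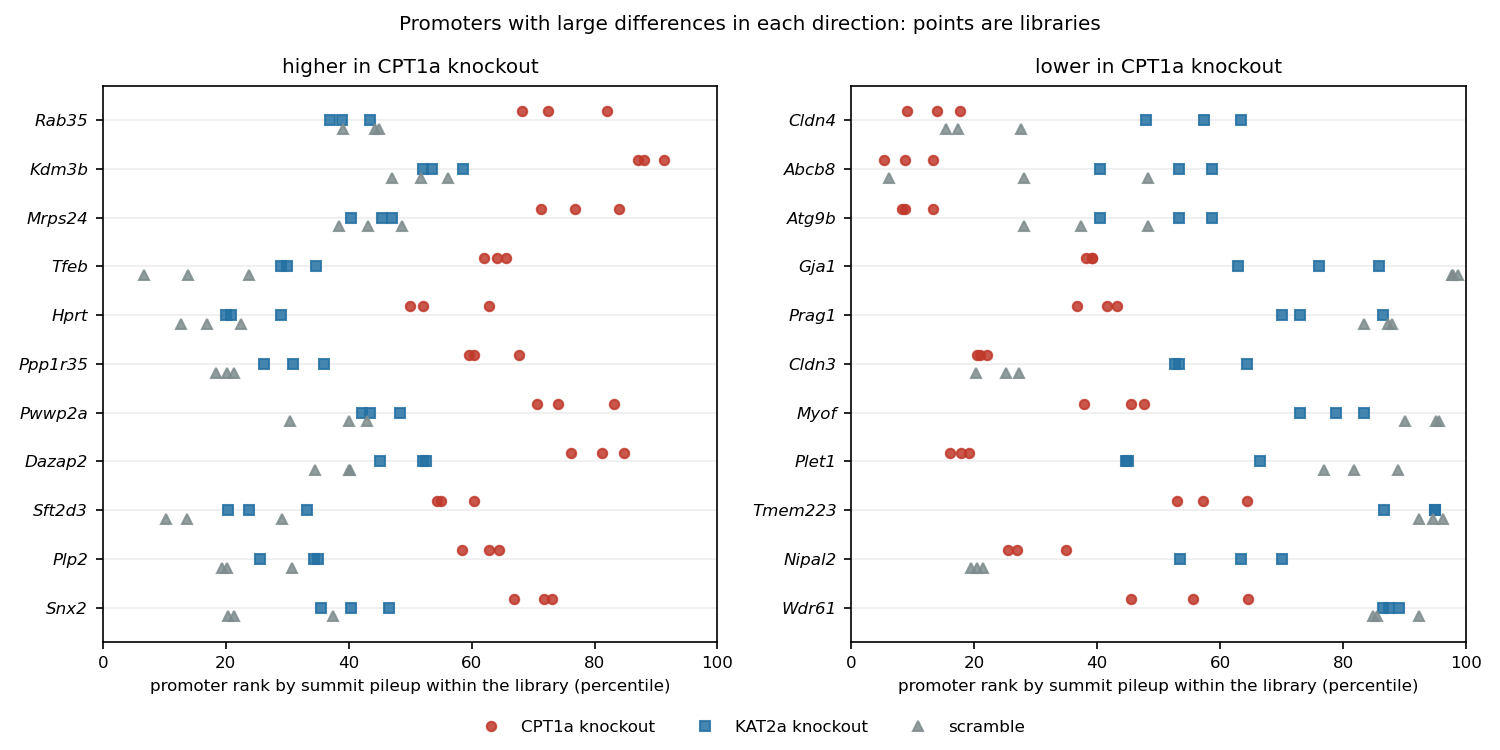
Promoter rank by summit pileup within each library (percentile, x axis) for 11 promoters with large differences in each direction among those past an adjusted p of 0.05 (limma), with CPT1a knockout, KAT2a knockout and scramble libraries as points. The knockouts do not overlap in any of the 22, and scramble lies beside CPT1a knockout for Cldn4, Cldn3 and Nipal2 but above both knockouts for Gja1, Myof and Plet1.

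Whole chromosomes differed by pileup. The median promoter of chromosome 18 ranked at 50.1, 49.5 and 47.7 in CPT1a knockout and at 35.4, 36.0 and 33.3 in KAT2a knockout, and 21 of its 260 promoters were called higher and 0 lower. The shift ran along the chromosome: the median difference was between 5.19 and 11.9 in each of 9 bins of 10 Mb with at least 15 promoters, while the 207 bins of other chromosomes ranged from -9.38 to 6.38. Scramble medians on chromosome 18 were 39.1, 38.8 and 42.9, between the knockouts. Chromosome 10 differed the other way, at 39.6, 39.1 and 40.5 in CPT1a knockout and 50.1, 50.2 and 49.5 in KAT2a knockout, with 1 higher and 18 lower calls among 528 promoters. By pileup, the 3 medians of each group did not overlap for 15 of 20 chromosomes, with 8 higher and 7 lower in CPT1a knockout, and by fold enrichment for 4, with chromosomes 4, 18 and X higher and chromosome 9 lower. By fold enrichment, the medians of chromosome 18 were apart (59.8, 58.7 and 55.5 against 46.4, 49.7 and 47.0), whereas those of chromosome 10 overlapped. The largest median difference by fold enrichment was that of chromosome X, at 5.21, followed by 4.45 on chromosome 18, and chromosome X differed by 4.05 by pileup. The median recovered background of the peaks, relative to the median chromosome of each library, was 0.886 to 0.955 on chromosome 10 in CPT1a knockout and 1.014 to 1.04 in KAT2a knockout, and 0.825 to 0.955 and 0.730 to 0.876 on chromosome 18. On chromosome 18 in KAT2a knockout, the median background was 1.00 times the calling depth in each library. The background cannot fall below the calling depth, so there these values do not measure local background or copy number. Copy number and genotype cannot be told apart here. With chromosome medians removed, 48 of the 120 higher and 75 of the 136 lower promoters still passed, among 170 higher and 182 lower calls in all. Cldn4, Cldn3, Rab35 and Tfeb were among them, and Gja1, on chromosome 10, had an adjusted p of 0.0515.

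**Figure D3:**
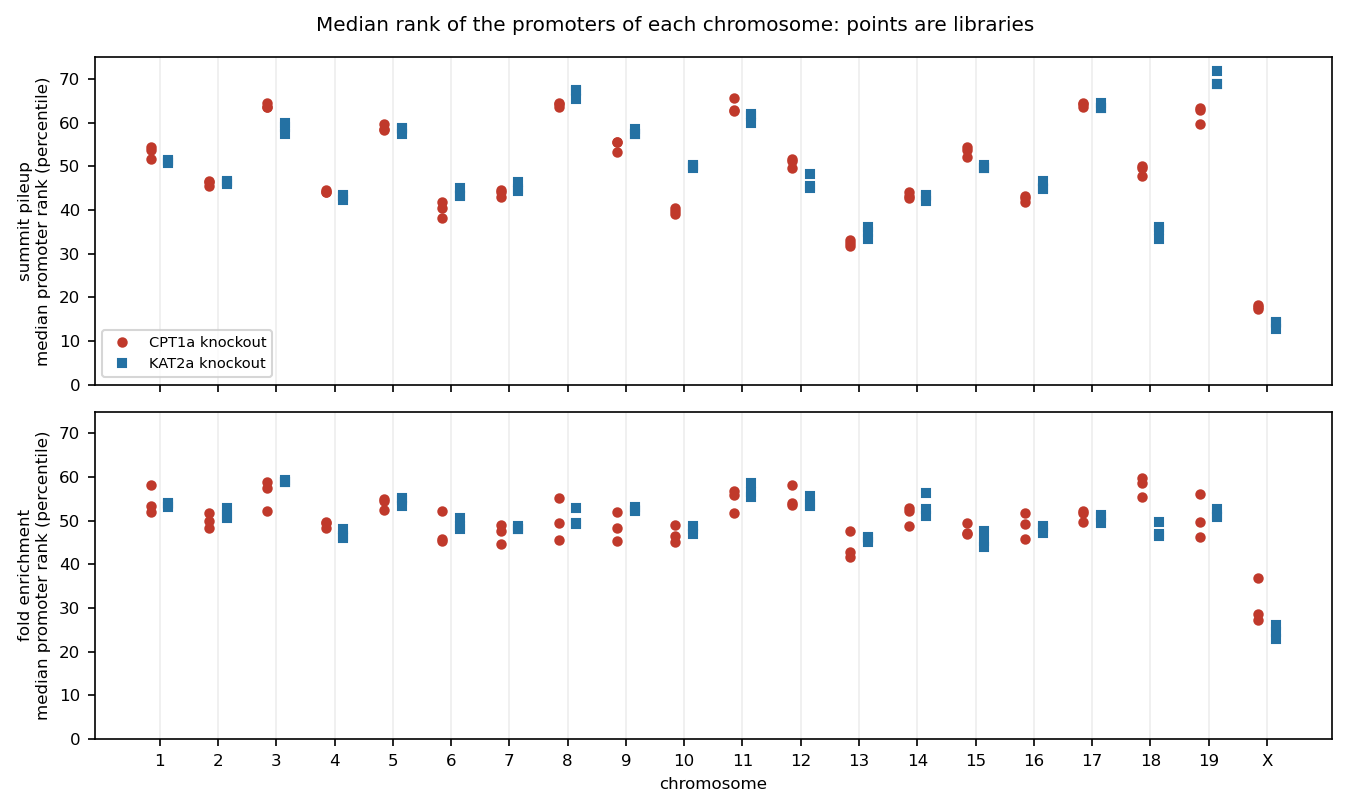
Median rank of the promoters of each chromosome in the 3 CPT1a knockout and the 3 KAT2a knockout libraries, by summit pileup (top) and fold enrichment (bottom), as percentiles among the promoters called in all 6. Chromosome 18 stands higher in CPT1a knockout in both panels, and chromosome 10 lower by pileup alone.

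Gene lists were described by their members with a promoter peak in all 6 libraries, beside the shares of all promoters given above. No member of any of the 25 lists passed the threshold by fold enrichment. The epithelial-mesenchymal transition list had 26 such members, of which 3 fell in rank in CPT1a knockout against KAT2a knockout by pileup and 0 rose. These were the claudins Cldn3, Cldn4 and Cldn7, which are tight junction genes rather than mesenchymal ones. Cldn7 ranked at 2.79, 2.52 and 2.60 in CPT1a knockout and 29.9, 27.2 and 20.0 in KAT2a knockout, the lowest promoter of the 3 in both knockouts and at 4.01, 0.438 and 1.17 in scramble. The groups did not overlap for 9 lower and 3 higher members, and the median difference of the list was -2.08, against -0.0366 for all promoters. Other epithelial markers overlapped between the knockouts by pileup: Cdh1, which encodes E-cadherin, ranked at 58.4, 62.1 and 50.2 in CPT1a knockout and 58.5, 64.3 and 58.7 in KAT2a knockout, and Krt8 at 74.1, 81.3 and 65.6 in CPT1a knockout and 80.6, 87.0 and 76.4 in KAT2a knockout. The Grhl2 promoter, of an epithelial transcription factor, ranked at 99.8, 99.5 and 99.7 in CPT1a knockout and 99.6, 99.5 and 98.7 in KAT2a knockout.

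Of 29 promoters of extracellular matrix and integrin genes, 4 fell and 1 rose in CPT1a knockout against KAT2a knockout by pileup. Lamb3, a laminin chain of the epithelial basement membrane, was among the lower ones, at 4.84, 6.04 and 2.60 in CPT1a knockout and 17.0, 11.5 and 11.8 in KAT2a knockout (difference -8.92 ± 1.89). Itga2, an integrin chain that binds collagen, had a difference of -28.3 ± 4.89 and Thbs1, the gene of thrombospondin 1, of -25.6 ± 5.31. By fold enrichment, Lamb3 did not overlap between the groups, whereas the fold enrichment differences of Itga2 and Thbs1 had the opposite sign, at 6.93 and 5.35. The collagen gene Col5a1 rose, from 9.67, 5.48 and 6.30 in KAT2a knockout to 19.1, 19.2 and 20.5 in CPT1a knockout. Scramble ranks were 5.67, 3.48 and 3.41 for Lamb3, which overlapped CPT1a knockout.

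In the NF-kB pathway, calls were confined to target genes. None of the 37 promoters of NF-kB subunits, inhibitors and kinases passed by pileup (smallest adjusted p = 0.105, that of Rela). The Rela promoter ranked at 84.3, 86.3 and 89.4 in CPT1a knockout and 93.1, 94.6 and 92.1 in KAT2a knockout by pileup, where the groups did not overlap (difference -6.58 ± 1.98). With chromosome medians removed this difference was 1.37, of the opposite sign. The median promoter of chromosome 19, where Rela lies, ranked lower in CPT1a knockout by 3.65. Among 28 target genes, 2 were called lower and 0 higher, where 1.25% and 1.1% of all promoters were. The groups did not overlap for 6 lower and 4 higher members, against 13.2% and 13.3% of all promoters. Cd44, the hyaluronan receptor, ranked at 60.8, 59.6 and 68.0 in CPT1a knockout and 91.2, 87.7 and 81.1 in KAT2a knockout (difference -23.9 ± 4.44), and Sdc4, the proteoglycan syndecan 4, at 67.7, 74.1 and 64.2 in CPT1a knockout and 89.1, 87.7 and 84.9 in KAT2a knockout (difference -18.6 ± 3.76). For both, scramble lay with KAT2a knockout, at 89.3, 87.3 and 85.7 and 96.7, 92.7 and 95.4.

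Genes of the machinery itself did not pass. Of the 25 SAGA and ATAC subunits, all with a promoter peak in all 6 libraries, 7 ranked higher and 2 lower in CPT1a knockout without overlap by pileup, and none was called (smallest adjusted p = 0.0614). That value was of Kat2b, the paralogue of Kat2a known as PCAF, at 58.4, 50.9 and 54.3 in CPT1a knockout and 34.4, 30.9 and 33.3 in KAT2a knockout (difference 21.7 ± 5.21). The Kat2a promoter had ranks of 37.0, 58.4 and 70.3 in CPT1a knockout and 43.5, 36.9 and 29.4 in KAT2a knockout by pileup (difference 18.6 ± 8.45, adjusted p = 0.236). Of 16 other histone acetyltransferases, 5 ranked higher and 1 lower without overlap by pileup, and 2 higher and 2 lower by fold enrichment, with Ncoa2, a coactivator of nuclear receptors, at a difference of 25.8 ± 6.67 (adjusted p = 0.0730). None of 30 carnitine shuttle and beta-oxidation promoters passed. The Cpt1a promoter ranked at 51.2, 60.9 and 68.0 in CPT1a knockout and 66.1, 81.7 and 73.9 in KAT2a knockout by pileup (difference -13.9 ± 6.35, adjusted p = 0.239). Hadha and Hadhb, the chains of the trifunctional protein of beta-oxidation, share a promoter peak and had a fold enrichment difference of -31.3 without overlap (adjusted p = 0.626). No promoter passed among 20 genes of acetyl-CoA supply, 22 of the tricarboxylic acid cycle, 29 of fatty acid and cholesterol synthesis, 14 of fatty acid uptake, 17 deacetylases, 27 of the interferon response or 12 Hox genes.

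Large families showed scattered calls. Of 81 cytosolic ribosomal protein promoters, 18 ranked lower and 5 higher without overlap by pileup, with Rps12 among those called lower and Rpl22 called higher. Of 63 replication-dependent histone promoters, 14 ranked lower and 2 higher without overlap, and none passed. Their median difference was -6.12 by pileup and -4.84 by fold enrichment, against -0.0366 and 0.324 for all promoters. Histone genes lie in clusters and their reads can be shared between near-identical copies, so they are not independent. Calls in the other lists numbered, higher and lower, 1 and 1 of 29 AP-1 and immediate early genes, 1 and 0 of 29 genes of glycolysis and hypoxia, 1 and 0 of 31 stress response genes and 0 and 1 of 39 cell cycle genes. They numbered 1 and 0 of 77 mitochondrial ribosomal proteins, 0 and 2 of 74 oxidative phosphorylation subunits, 0 and 1 of 37 proteasome subunits, 2 and 1 of 301 Zfp genes and 1 and 1 of 35 genes of Wnt, Notch and BMP signalling. Among these were Atf4, a transcription factor of the stress response, at 85.01, 88.9 and 91.5 in CPT1a knockout and 70.7, 76.1 and 67.6 in KAT2a knockout (difference 17.0 ± 3.51), Hsp90aa1, a chaperone (21.4 ± 4.04), Slc16a1, a lactate transporter (11.5 ± 2.07), and Wnt10a (16.3 ± 3.26), which ranked higher, and Rb1, the retinoblastoma gene (-26.2 ± 4.00), Dusp5, an ERK phosphatase (-21.5 ± 4.20), and Tcf7l2, a Wnt effector (-11.4 ± 2.38), which ranked lower. Rb1 had scramble ranks of 95.1, 94.6 and 97.3, above both knockouts. The other called members were Ndufa13, Atp5j2, Psmd2 and Zfp422, which ranked lower, and Zfp335 and Zfp740, which ranked higher.

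**Figure D4:**
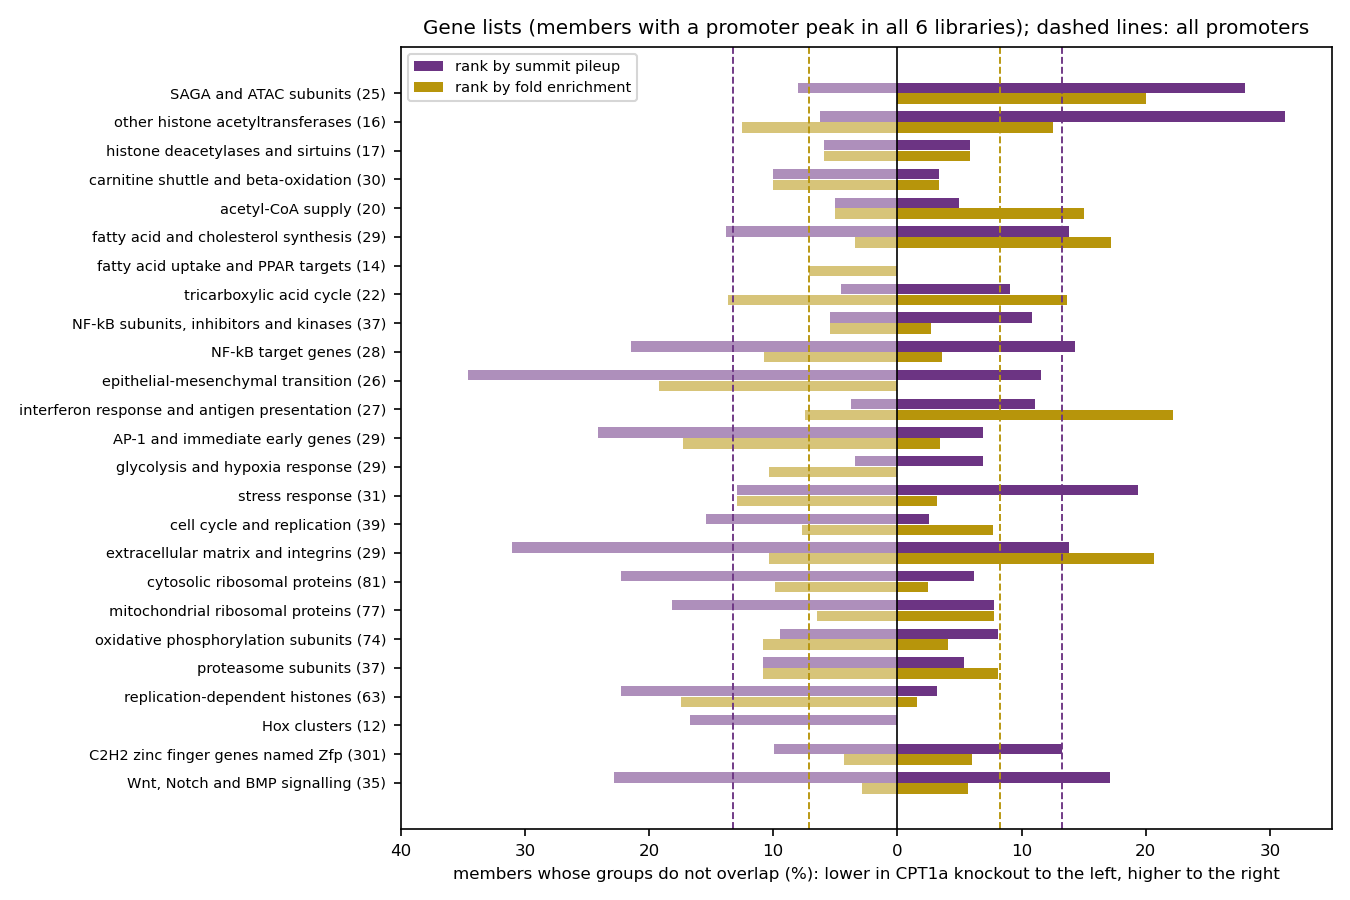
Share of the members of each gene list (number with a promoter peak in all 6 libraries in brackets) whose 3 CPT1a knockout ranks do not overlap the 3 KAT2a knockout ranks, lower to the left and higher to the right, by summit pileup and by fold enrichment, with the shares of all promoters as dashed lines. The epithelial-mesenchymal transition list reaches farthest to the left and the other histone acetyltransferases farthest to the right, both by pileup.

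Regions were compared in the same way, whether or not they lay at a promoter. By pileup, 181 of 12527 regions ranked higher (1.44%) and 214 lower (1.71%) in CPT1a knockout. The groups did not overlap for 1648 (13.2%) higher and 1633 (13%) lower regions. Leaving out any 1 library left 9 to 56 higher and 48 to 76 lower regions, with the fewest of both without CPT1a knockout replicate 3. Most of the calls were promoters, with 158 higher and 165 lower among 10175. Of the 837 in gene bodies, 9 were higher and 21 lower, and of the 1515 between genes, 14 were higher and 28 lower. The largest difference of all was inside Pkp1, which encodes the desmosomal protein plakophilin 1 (chr1:135891960-135896746). This region ranked at 22.5, 24.5 and 19.1 in CPT1a knockout and at 82.1, 82.7 and 81.1 in KAT2a knockout (difference -59.9, SE 4.39, adjusted p = 0.000365), with scramble between them at 71.5, 54.0 and 55.4. A region inside Fam167a (chr14:63450883-63455090) ranked at 6.85, 7.60 and 4.97 and 32.9, 39.1 and 29.2. Regions between genes 6373 bp from Phlda1 (difference -25.5) and 14945 bp from Dusp6, a phosphatase of ERK (difference -23.2), both on chromosome 10, also ranked lower. The largest difference in the other direction was inside Gypc, the gene of glycophorin C, on chromosome 18 (chr18:32551332-32554941), at 85.9, 96.4 and 89.0 in CPT1a knockout and 46.5, 46.9 and 51.8 in KAT2a knockout. There scramble, at 86.9, 83.4 and 80.4, was nearer to CPT1a knockout. These regions were picked for their size after the values were seen, and nearest genes are given as positions only.

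The promoters that differed also differed in base composition. In the 300 bases from 250 before to 50 after the TSS (GRCm38, GENCODE vM21), the median GC content was 71.2% for the 120 promoters higher in CPT1a knockout, 62.7% for the 136 lower ones and 64.3% for all 10919. The median number of CpG dinucleotides was 32, 21 and 25. With the GC trend removed, 53 of the 120 and 91 of the 136 still passed, among 126 higher and 185 lower calls. The AP-1 motif (TGACTCA or TGAGTCA, either strand) occurred in 8.82% of the lower promoters (12 of 136), 1.67% of the higher ones and 2.89% of all. The NF-kB motifs GGGACTTTC and GGGAATTTC occurred in 2 lower and 1 higher promoters, and in 0.614% of all. The ETS motif CCGGAAGT was found in 5.15%, 5% and 8.61%, the NRF1 motif GCGCATGCG in 1.47%, 4.17% and 3.54%, the CAAT box CCAAT in 25.7%, 30% and 33.6%, and the E-box CACGTG in 4.41%, 8.33% and 9.55%. In 300 bases around their summit, the 265 regions of KAT2a knockout alone reached a GC content of 50.3% in the median and all regions 54.3%, where all means those called in either group. Of the former, 6.04% held the AP-1 motif, and 4.95% of the latter. Each motif was searched on both strands and counted once per window, and a match describes letters in a window, not a bound site.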

How the data were processed

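H3K9ac was profiled by ChIP followed by sequencing in 4T1 spheroids, and the 12 input libraries of the 24 samples were not analysed here. The authors deposited 1 narrowPeak list per library, called with MACS2 on mm10 and not pooled. The deposited lists hold a fold enrichment over local background, the −log10 p-value and −log10 q-value, and a score that is 10 times the latter. GEO's notes name FastQC, Bowtie2, SAMtools, deepTools and the dm6 build, whereas the study's methods name BWA as the aligner and a Drosophila spike-in, so the aligner is unsettled. The versions of MACS2 and of the aligner are not given in the sources used here. No counts of reads were available, and depth is known only as the calling depth.

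Between 11 and 45 peaks per list on chromosome Y were set aside. Pileup, local background and calling depth were recovered from fold enrichment and p under the MACS2 formulas, which returned 100% of peaks. Peaks of the 12 lists were merged into regions, and a region or a promoter (1 kb on each side of a protein-coding TSS, GENCODE vM21) took the strongest overlapping peak of a library. Values were ranked within each library, so that only order is compared and a global change in H3K9ac would not be seen. Ranks of the 12527 regions and 10919 promoters called in all 6 libraries were compared with limma 3.58.1 (R 4.3.3, with a mean-variance trend), with Benjamini-Hochberg adjustment over all of them and a threshold of 0.05. Library values were compared by a two-sided exact permutation test over 20 assignments. Python 3.11.15, pandas 2.3.3 and scipy 1.17.1 were used.

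The 12 promoters with the largest non-overlapping difference in each direction were named, those past the threshold first, with predicted genes left out and genes that share a peak counted once. Cpt1a, Kat2a, Rela, the members of each list that passed the threshold or differed most, and the 4 strongest regions called in one group alone were named too. Under this rule the 24 promoters by fold enrichment did not pass, and the 24 by pileup belong to a measure added after the data were seen. A few genes that the rule names are not reported here. The genes, lists and comparisons were chosen with earlier results of these data known. The replicate numbers did not pair the libraries: same-numbered CPT1a and KAT2a knockout libraries had correlations of their deviations of -0.0258, 0.00113 and 0.0169 by fold enrichment and 0.0901, -0.0254 and 0.0714 by pileup.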

Additional observations from a re-analysis of the deposited data

How the results depend on the processing

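Ranks by fold enrichment kept 0 calls in limma when any 1 library was left out (0 to 0 in both directions, regions and promoters). Lower calls appeared under some settings: 11 regions and 2 promoters when ranked by −log10 p, 2 regions with chromosome medians removed, 2 regions and 2 promoters at equal calling depth, and 1 promoter with the GC trend removed. The number of pileup calls moved more. Higher and lower regions numbered 484 and 469 on a normal score of the rank, 119 and 134 without the variance trend, and 297 higher with the GC trend removed, and promoters 390 and 361 on the normal score and 68 and 63 without the trend. Leaving out 1 library gave 9 to 56 higher and 48 to 76 lower regions and 0 to 23 higher and 0 to 63 lower promoters, with 1923 to 2196 promoters at an unadjusted p below 0.05 each time. The pileup settings were chosen after seeing the data, and the cause of these moves was not tested.

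The replicate numbers are shared labels without a stated pairing. With the replicate block, the fold enrichment ranks kept 0 calls, and pileup gave 50 higher and 87 lower regions and 2 higher and 19 lower promoters.

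The difference in median peak width turned to -0.667 bp for peaks of −log10 q of 5 or more, to -127 bp with peaks within 500 bp merged and to -201 bp at equal calling depth. Leaving out 1 library gave differences of 14.3 to 100.8 bp in width, -4957 to -1296 in peak number, -7.48 to -1.75 Mb in covered length, 0.077 to 10.8 percentage points in promoter share and -0.473 to 0.127 in calling depth, where 0.127 is the value without CPT1a knockout replicate 3. Regions of CPT1a knockout alone numbered 3 at −log10 q of 5 or more, 21 at equal depth, 33 at equal list length and 6 to 245 with 1 library left out. Those of KAT2a knockout alone numbered 122 at equal list length and 266 to 700 with 1 library left out. The Rela promoter by fold enrichment turned to -4.31 by −log10 p, -0.292 with the GC trend removed, -2.61 without CPT1a knockout replicate 3 and -5.25 without KAT2a knockout replicate 2 (range with 1 library left out -5.25 to 11.6), and by pileup to 1.37 with chromosome medians removed. Of 378 recomputed values of 27 promoters by pileup, 242 kept direction and side of the threshold, 135 lost the threshold and 1 reversed. Of 405 by fold enrichment, 401 kept both and 4 reversed. Sets of 3 libraries limit what any single promoter can show. CPT1a knockout replicate 3 had the lowest calling depth, and the part of depth in its short list was not tested.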
